A study of Mus musculus with 6 samples.

Results

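The immediate early genes Fos, Fosb, Junb, Egr1, Nr4a1, Nr4a2, Arc, Npas4, Dusp1 and Ier2 were followed in mouse dorsal root ganglia, where the cell bodies of peripheral sensory neurons lie. These 10 genes were picked by symbol from a count table of 54532 genes. The rule itself uses no measured value, but the choice was made with earlier results of these data known. Bulk RNA sequencing compared Ash1l+/- mice, which carry an altered copy of the histone methyltransferase gene Ash1l, with wild-type (WT) littermates. There were 3 libraries per genotype. No treatment is named for either genotype. The labels state neither how the allele was made, nor the age or sex of the mice, nor how many animals each library came from, so p-values measure the spread between these libraries, which may be partly technical.

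Immediate early genes are transcribed within minutes of a stimulus from factors already present in the cell, without new protein synthesis. In neurons, calcium entry and kinase signalling activate CREB, the serum response factor SRF and its ternary complex partners, and MEF2, which drive this first wave. Fos, Fosb and Junb encode subunits of the AP-1 transcription factor, Egr1 a zinc finger factor, Nr4a1 and Nr4a2 orphan nuclear receptors, and Npas4 a neuron-restricted factor of the basic helix-loop-helix PAS family. Arc encodes a capsid-like protein that regulates AMPA receptor traffic at synapses, Dusp1 a phosphatase that switches off MAP kinases, and Ier2 a small nuclear protein. Many cell types other than neurons induce these genes, and handling of tissue does so too.

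The promoters are shown first because CREB and SRF act there. RefSeq promoter sequence (GRCm38.p6) was matched by symbol for 7 of the genes, leaving aside Egr1, Arc and Ier2, and the 250 bases before the start site were searched on both strands. The letters TGACG, the core of the cAMP response element bound by CREB, occurred in 7 of 7 windows, with 1 copy in Fosb and Junb, 2 in Fos and Npas4, 3 in Dusp1 and 4 in Nr4a1 and Nr4a2. Over all 32851 RefSeq promoters of the same length the share was 17.8%, and over the 14829 promoters of genes tested here 24.96%. The full palindrome TGACGTCA, which contains the core, was found in Dusp1 alone of the 7, against 1.55% of all promoters and 2.47% of tested ones. The CArG box of SRF was found in 0 of 7, against 1.47% and 1.13%. The TATA box letters TATAAA, searched on the gene strand only, occurred in Fos alone of the 7, against 7.59% and 4.05%. Only these exact letters were counted, so the letters TATATAA in the Npas4 window were not. A match of letters is a description and does not show binding. Sequence beyond the 250 bases, and the promoters of Egr1, Arc and Ier2, were not searched. The count of 0 of 7 therefore does not show that the genes lack a CArG box. The 4 windows printed belong to Fos as the best known gene of the class (chr12:85473640-85473889, plus strand), to Nr4a1 and Dusp1, whose libraries separated by genotype (chr15:101266596-101266845, plus strand, and chr17:26508473-26508722, minus strand), and to Npas4, the least abundant (chr19:4989972-4990221, minus strand). Each runs 5' to 3' on the strand of the gene and ends at the base before the start site. Capitals mark TGACG or its reverse complement CGTCA.
Fos: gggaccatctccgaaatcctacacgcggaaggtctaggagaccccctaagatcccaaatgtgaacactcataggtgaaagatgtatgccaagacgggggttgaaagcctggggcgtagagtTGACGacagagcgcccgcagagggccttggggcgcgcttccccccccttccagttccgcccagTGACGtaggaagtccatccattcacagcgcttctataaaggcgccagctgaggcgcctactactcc
Nr4a1: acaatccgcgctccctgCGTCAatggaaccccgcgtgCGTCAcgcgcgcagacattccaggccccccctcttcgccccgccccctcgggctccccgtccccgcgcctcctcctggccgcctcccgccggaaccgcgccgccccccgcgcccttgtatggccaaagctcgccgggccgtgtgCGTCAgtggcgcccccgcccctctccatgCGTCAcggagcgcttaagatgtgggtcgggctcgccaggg
Dusp1: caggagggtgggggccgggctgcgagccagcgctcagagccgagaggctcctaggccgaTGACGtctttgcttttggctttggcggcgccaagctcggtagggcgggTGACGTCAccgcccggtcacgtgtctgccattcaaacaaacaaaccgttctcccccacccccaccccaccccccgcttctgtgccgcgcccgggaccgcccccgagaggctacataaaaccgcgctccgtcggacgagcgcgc
Npas4: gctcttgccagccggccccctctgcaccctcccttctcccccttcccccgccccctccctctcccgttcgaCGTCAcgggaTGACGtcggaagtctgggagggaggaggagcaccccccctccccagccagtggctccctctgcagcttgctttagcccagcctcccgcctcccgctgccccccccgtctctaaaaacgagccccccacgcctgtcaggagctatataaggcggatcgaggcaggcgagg
In Fos the copies begin 129 and 66 bases before the start, in Nr4a1 233, 213, 69 and 40, in Dusp1 191, 143 and 140, and in Npas4 179 and 169. The count table places the start of Nr4a1 upstream of the RefSeq start used here, so its window belongs to 1 of its start sites. For Dusp1 the table places the start upstream of the RefSeq start as well, and the window printed overlaps the gene as the table annotates it.

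Total counts per library ranged from 17209294 to 20545722. WT replicate 2 stood apart. Pearson's r of log2 CPM (reads scaled to a common library size with TMM factors) over genes, which are not replicates, was 0.846 to 0.877 with any other library, and at least 0.981 among the remaining 5. Genotype results for the 10 genes and their paralogs are therefore given with 6 libraries and without WT replicate 2, and also, for those that passed the count filter, with trends on GC content and gene length removed from the 5. All 14 sensory neuron markers, among them Avil, Prph, Scn10a and Trpv1 had reads in every library. Summed marker levels in WT replicate 2 were 12.1 times the mean of the other wild types for skeletal muscle, where Myh1, Myh2, Ckm, Tnnt3 and Tnni2 were at 0 in at least 1 library, 6.98 times for erythrocytes and 1.97 times for sensory neurons. Satellite glial markers were at 2.92 times, macrophage markers 2.47 and neutrophil markers 2.13. Schwann cell and myelin markers were at 1.20 times, and endothelial and mural markers at 1.09. Fibroblast markers were at 0.690 times and central nervous system markers at 0.604. In a sum the most abundant markers weigh most, so these ratios need not hold for the typical marker of a list. Without WT replicate 2 the median marker log2 fold change went from 0.29 to 0.36 in satellite glia. It went from 0.07 to 0.05 in sensory neurons, -0.24 to -0.17 in macrophages and -1.95 to -0.40 in erythrocytes. Ash1l itself was at 60.9, 30.9 and 54.4 CPM in WT replicates 1, 2 and 3 and at 66.5, 66.5 and 68.9 in the Ash1l+/- libraries. Every Ash1l+/- library lay above every WT library, as was so for 19.3% of all genes tested. Its log2 fold change was 0.46 (SE 0.27, adjusted p = 0.396 in edgeR) with 6 libraries and 0.22 (SE 0.08, adjusted p = 0.0593) with 5. With trends removed from the 5 it was -0.05 (SE 0.08, adjusted p = 0.783). The transcript therefore did not check the labels.

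The 9 genes that passed the count filter were expressed at low to moderate levels, and Npas4 was close to the detection limit. On a scale that allows genes to be compared, CPM per kb of gene length averaged over 6 libraries, the order was Nr4a1 at 9.67 ± 1.77 (SD, n = 6), Dusp1 at 8.09 ± 0.980, Junb at 6.76 ± 0.843, Ier2 at 5.001 ± 3.65, Egr1 at 2.56 ± 0.587, Nr4a2 at 2.50 ± 0.508, Fos at 2.26 ± 0.313, Arc at 1.24 ± 0.366, Fosb at 0.215 ± 0.0808 and Npas4 at 0.0685 ± 0.0418. Egr1 and Nr4a2 did not differ beyond their spread, with Egr1 the higher in 3 of 6 libraries. Nr4a2 lay above Fos, and Nr4a1 above Dusp1, in 5 of 6 libraries, though the means of each pair differed by less than its larger SD. The wide spread of Ier2 came from WT replicate 2, at 12.3 CPM per kb against 2.34 to 4.77 in the other libraries. Dusp1 lay above Junb, Fos above Arc, and Arc above Fosb in 6 of 6 libraries. In these bulk samples fewer expressing cells and less RNA per cell cannot be told apart.

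**Figure D1:**
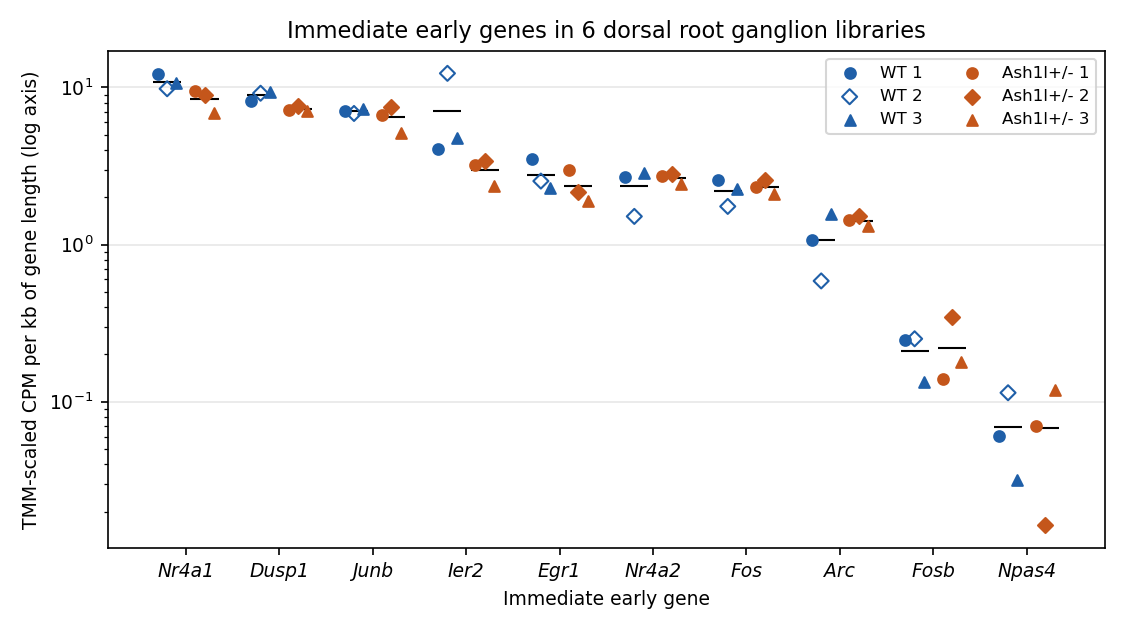
Levels of the 10 immediate early genes in each library, as TMM-scaled CPM per kb of gene length on a log axis, ordered by the mean over 6 libraries. Blue symbols are WT and orange symbols Ash1l+/-, the shape gives the replicate, the open diamond is WT replicate 2, and black bars are means of 3 libraries. Nr4a1 lies highest at 9.67 and Npas4 lowest at 0.0685, and the open diamond of Ier2 stands far above the rest.

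The comparison of genotypes asked how the ganglia of Ash1l+/- mice and their littermates differ in expression. With all 6 libraries edgeR called 0 of the 9 genes that passed the count filter (Npas4 did not), and 1 of them, Ier2, had an unadjusted p under 0.05. Across all 16032 genes tested, 0% were called at an adjusted p of 0.05. There 1702 genes had an unadjusted p under 0.05, limma-voom called 0 genes and DESeq2 called 35, none of them among the 10. Leaving out WT replicate 2, 1 of 9 genes was called, Nr4a1, which fell. The background was 19.8% of 16395 genes called, 10.4% lower and 9.39% higher in Ash1l+/-, so 1 of 9 is no larger a share than that of all genes. After GC and length trends had been taken out of those 5, 0 of 9 were called, against a background of 7.16%, with 4.42% lower and 2.74% higher. The median log2 fold change of the 9 was -0.13 with 6 libraries, -0.15 with 5 and -0.06 with trends removed, beside medians of 0.00 over all genes in each case. Nr4a1, Dusp1 and Ier2 were lower in every Ash1l+/- library than in any WT library, and none of the 9 was higher in every Ash1l+/- library. Over all genes tested, 19.2% were lower without overlap and 19.3% higher. The intervals of the fold changes, which are approximate, give a rough bound on what could have been missed. In the 5 libraries, with 2 wild types left, the 95% interval of 8 of 9 genes lay within a 2-fold change in either direction. Fosb was the exception, and with 6 libraries it was 6 of 9.

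**Figure D2:**
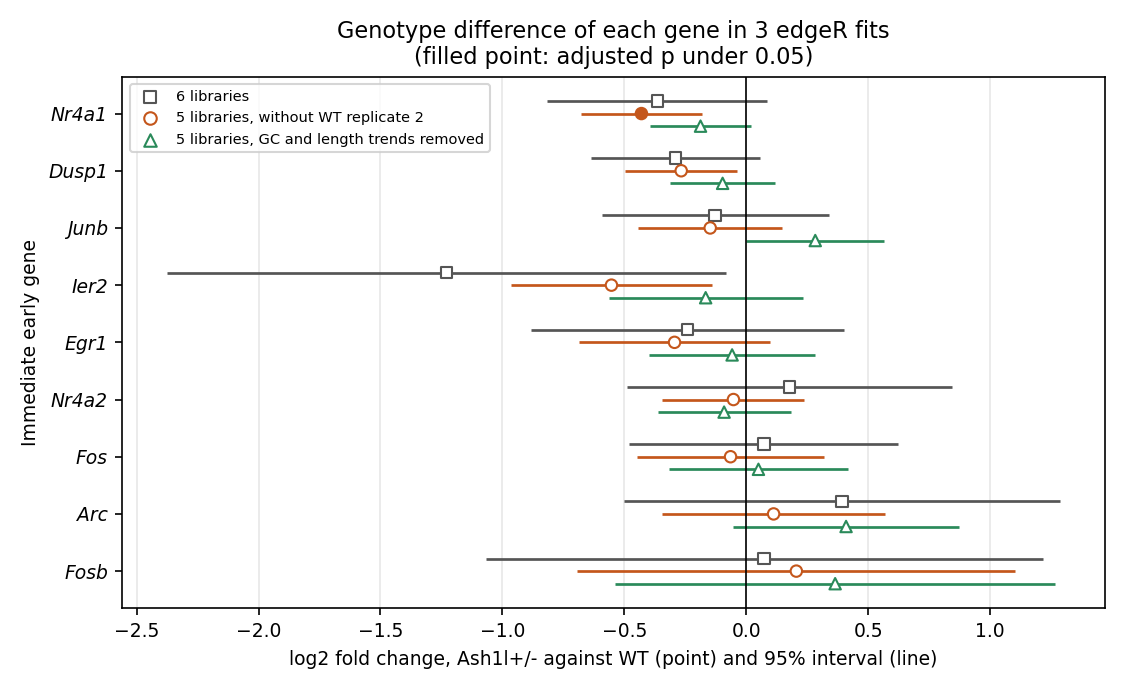
Log2 fold change of Ash1l+/- against WT for the 9 genes tested, as points with 95% intervals as lines, from edgeR with 6 libraries (grey squares), without WT replicate 2 (orange circles) and without it after removal of GC and length trends (green triangles). Filled points have an adjusted p under 0.05, and the only one is Nr4a1 without WT replicate 2, at -0.43.

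Among the AP-1 subunits, none passed the test. Fos (chromosome 12, 85473890 to 85477273, plus strand, ENSMUSG00000021250) was at 6.08, 4.11 and 5.34 CPM in WT replicates 1, 2 and 3 and at 5.45, 6.01 and 4.90 in Ash1l+/- replicates 1, 2 and 3. The genotypes overlapped fully, and the lowest library was WT replicate 2. These levels rest on 55 to 123 reads, a counting error of 9.02% to 13.5%, against a spread of 19.2% among the WT and 10.2% among the Ash1l+/- libraries. Its log2 fold change came to 0.07 (SE 0.23, 95% interval -0.48 to 0.62, adjusted p = 0.848) with 6 libraries and -0.06 (SE 0.18, -0.45 to 0.32, adjusted p = 0.839) with 5. With trends removed it was 0.05 (SE 0.17, -0.32 to 0.42, adjusted p = 0.909). Its direction changed with the setting, and all 3 intervals lay within a 2-fold change.

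Fosb (chromosome 7, 19302696 to 19310051, minus strand, ENSMUSG00000003545), whose splice variant ΔFosB accumulates with repeated stimulation, was at 1.53, 1.57 and 0.830 CPM in WT and at 0.870, 2.15 and 1.11 in Ash1l+/-. It had 16 to 40 reads per library, and the highest and the next to lowest values both belonged to Ash1l+/- libraries. The log2 fold change of 0.07 with 6 libraries (SE 0.47, -1.07 to 1.21, adjusted p = 0.928) and of 0.21 with 5 (SE 0.43, adjusted p = 0.778) leave a 2-fold difference in either direction within the first interval. With trends removed the value was 0.36 (SE 0.43, -0.54 to 1.27, adjusted p = 0.682). Counts are per gene, so the splice variant was not separated.

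Junb (chromosome 8, 84974484 to 84978718, minus strand, ENSMUSG00000052837) was at 16.4, 15.7 and 16.7 CPM in WT and at 15.4, 17.3 and 11.9 in Ash1l+/-. The 3 wild types, WT replicate 2 included, had a coefficient of variation of 3.14%, and the low value was that of Ash1l+/- replicate 3. The fitted difference on the log2 scale came to -0.13 (SE 0.19, adjusted p = 0.692) with 6 libraries and -0.15 (SE 0.14, adjusted p = 0.501) with 5. It turned to 0.28 (SE 0.13, adjusted p = 0.230) when trends were removed from the 5. Junb has 62.6% GC in its longest transcript, more than 98.6% of tested genes. Junb shares 173 exonic bases with Prdx2 on the opposite strand, and reads there cannot be told apart in counts without strand.

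Of the other transcription factors, Egr1 and Nr4a2 did not pass and Nr4a1 passed without WT replicate 2. Egr1 (chromosome 18, 34859823 to 34864984, plus strand, ENSMUSG00000038418) was at 15.6, 11.4 and 10.3 CPM in WT and at 13.4, 9.66 and 8.46 in Ash1l+/-. Replicate 1 was the highest library of each genotype, and the groups overlapped. Its spread, 22.6% in WT and 24.6% in Ash1l+/-, was over 3 times the counting error of 6.71% and 6.93%. Ash1l+/- differed from WT on the log2 scale by -0.24 (SE 0.26, adjusted p = 0.592) with 6 libraries, -0.29 (SE 0.19, adjusted p = 0.287) with 5 and -0.06 (SE 0.16, adjusted p = 0.879) with trends removed. Without Ash1l+/- replicate 1 as well as WT replicate 2 it was -0.52 and passed (adjusted p = 0.0344), and without WT replicates 1 and 2 it was 0.03 (adjusted p = 0.965).

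Nr4a1 (chromosome 15, 101254269 to 101274795, plus strand, ENSMUSG00000023034), also known as Nur77, was at 42.6, 34.4 and 37.5 CPM in WT and at 33.4, 31.4 and 24.1 in Ash1l+/-. Every Ash1l+/- library lay below every WT library, by a narrow margin between WT replicate 2 and Ash1l+/- replicate 1. The p of a two-sided exact permutation test was 0.1, which is the smallest value it can take with 3 libraries in each group. Group means were 38.2 ± 4.17 and 29.7 ± 4.91 CPM (SD, n = 3), a log2 fold change of -0.36 (SE 0.19, 95% interval -0.82 to 0.09, adjusted p = 0.387). Without WT replicate 2 it fell by 0.43 on the log2 scale, to 0.742 of the WT level (95% interval 0.625 to 0.881, SE 0.12, adjusted p = 0.0155). The call was lost without Ash1l+/- replicate 3 (-0.30, adjusted p = 0.0731) or WT replicate 1 (-0.34, adjusted p = 0.204, a single WT library being assumed to vary like the other group). It was also lost with trends removed, at -0.19 (SE 0.10, adjusted p = 0.278). The direction was lower in all 32 analyses run.

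Nr4a2 (chromosome 2, 57106830 to 57124003, minus strand, ENSMUSG00000026826), also known as Nurr1, was at 10.9, 6.13 and 11.6 CPM in WT and at 11.1, 11.4 and 9.85 in Ash1l+/-. Apart from WT replicate 2, the 5 libraries lay between 9.85 and 11.6 CPM, and the Ash1l+/- libraries spread by 7.67%, beside a counting error of 6.89%. The log2 fold change moved from 0.18 (SE 0.27, adjusted p = 0.699) with 6 libraries to -0.05 (SE 0.14, 95% interval -0.34 to 0.24, adjusted p = 0.826) with 5 and -0.09 (SE 0.13, adjusted p = 0.743) with trends removed. Nr4a1 and Nr4a2 are paralogs, and whether their fold changes differ from each other was not tested.

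The genes that act outside the nucleus or on kinases, together with Ier2, showed no call in the 6 libraries or in the 5. Arc (chromosome 15, 74669083 to 74672570, minus strand, ENSMUSG00000022602) was at 3.26, 1.79 and 4.77 CPM in WT and at 4.35, 4.61 and 4.01 in Ash1l+/-. Its 3 Ash1l+/- values spread by 7.03%, less than the counting error of 10.9%, and lay inside the range of the wild types. On the log2 scale the fold change came to 0.39 (SE 0.37, adjusted p = 0.540) with 6 libraries, 0.11 (SE 0.22, adjusted p = 0.760) with 5 and 0.41 (SE 0.22, adjusted p = 0.294) with trends removed from the 5.

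Npas4 (chromosome 19, 4984355 to 4989971, minus strand, ENSMUSG00000045903), the most neuron-restricted of the 10 and one that responds to calcium entry, was close to the detection limit. By replicate number, it had 4, 5 and 2 reads in the WT libraries against 5, 1 and 7 in the Ash1l+/- libraries, in libraries of at least 17209294 counts. Summed over libraries, 13 reads in Ash1l+/- and 11 in WT gave a ratio of levels of 1.07 with a 95% counting interval of 0.442 to 2.64. It did not pass the count filter, and without one it stood on the log2 scale at 0.08 (SE 0.93, adjusted p = 0.983) with 6 libraries and 0.54 (SE 1.09, adjusted p = 0.805) with 5.

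Dusp1 (chromosome 17, 26505590 to 26508519, minus strand, ENSMUSG00000024190) was at 22.2, 24.7 and 25.1 CPM in WT and at 19.3, 20.4 and 19.1 in Ash1l+/-. All Ash1l+/- libraries lay below all WT libraries, WT replicate 2 included, and the spread was small, 6.69% in WT and 3.58% in Ash1l+/-, beside counting errors of 4.87% and 5.11%. An exact permutation test again gave p = 0.1, its smallest value. The fold change was 0.818 (95% interval 0.643 to 1.04, adjusted p = 0.385) with 6 libraries and 0.831 (0.709 to 0.974, unadjusted p = 0.0249, adjusted p = 0.0934) with 5. With trends removed from the 5 it was 0.935 (0.806 to 1.08, adjusted p = 0.638). Dusp1 overlaps 11 exonic bases of other annotated genes at its locus.

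Ier2 (chromosome 8, 84661331 to 84662852, minus strand, ENSMUSG00000053560) was at 6.13, 18.7 and 7.26 CPM in WT and at 4.90, 5.15 and 3.56 in Ash1l+/-. Every Ash1l+/- library was below every WT library (exact permutation p = 0.1), and WT replicate 2 was 2.79 times the mean of the other wild types. That library set the size of the difference: the log2 fold change was -1.23 (SE 0.47, 95% interval -2.37 to -0.08, adjusted p = 0.385) with it and -0.55 (SE 0.20, -0.96 to -0.14, adjusted p = 0.0534) without it. Ier2 is the shortest of the 10, at 1.522 kb against a median of 4.144 kb over tested genes, and its GC content of 60.9% exceeds that of 97.1% of them. With trends removed from the 5 libraries its log2 fold change was -0.17 (SE 0.19, adjusted p = 0.669).

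The libraries of a genotype also differed among themselves. Ash1l+/- replicate 3 had the lowest value of the 3 Ash1l+/- libraries for 8 of the 9 genes tested, Fosb being the exception, and its median log2 difference from the mean of WT replicates 1 and 3 was -0.30. The same median was -0.10 in Ash1l+/- replicate 1 and 0.03 in Ash1l+/- replicate 2. The sum over the 10 genes came to 125, 119 and 120 CPM for the WT libraries and to 108, 108 and 87.4 for the Ash1l+/- libraries, by replicate number. Without Ier2 the sums were 119, 100.1 and 112 CPM for WT and 104, 103 and 83.8 for Ash1l+/-, and the genotypes then overlapped, through WT replicate 2.

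WT replicate 2 did not shift the 9 genes tested in a common direction. Against the mean log2 CPM of WT replicates 1 and 3, it was higher by 1.47 in Ier2, 0.44 in Fosb and 0.07 in Dusp1. It was lower in the other 6 of these 9, with differences of -1.09 in Arc, -0.86 in Nr4a2 and -0.46 in Fos at the far end. Npas4, not among the 9, was at 2.48 times the mean CPM of WT replicates 1 and 3, on 5 reads. For this comparison the GC and length trends were fitted over all 6 libraries, whereas the genotype fits without WT replicate 2 fitted them over the 5. Removal of these trends took Ier2 from 1.47 to 0.29 and Junb from -0.07 to -0.75. Arc went from -1.09 to -1.50 and Fos from -0.46 to -0.86, so both lay further from the other wild types. In the Ash1l+/- libraries the trend fitted at the GC content and length of Junb was -0.30, -0.48 and -0.55 relative to WT replicates 1 and 3, and that for Nr4a2, the gene with the lowest GC content of the 10 at 47.9%, was 0.01, 0.05 and 0.06. The trends moved with genotype in the 5 libraries, so a genotype difference in GC-rich genes and a technical trend cannot be told apart here.

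**Figure D3:**
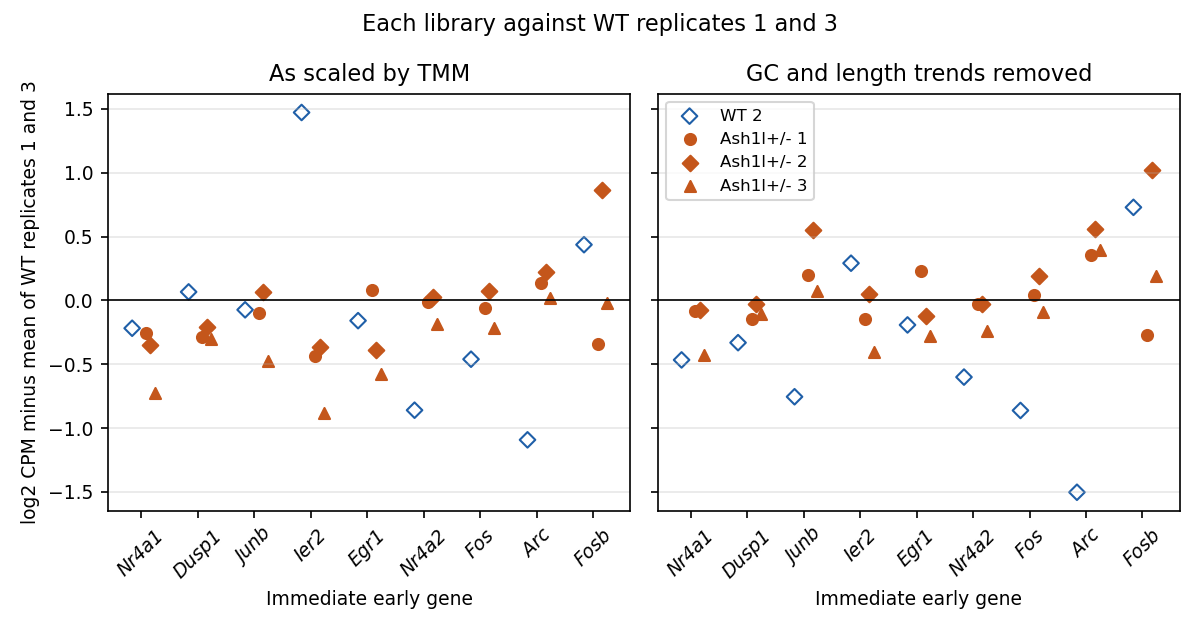
Log2 CPM of each gene in WT replicate 2 (open diamonds) and the 3 Ash1l+/- libraries (orange), minus the mean of WT replicates 1 and 3, before (left) and after (right) removal of GC and length trends fitted over 6 libraries. Ier2 in WT replicate 2 moves from 1.47 to 0.29, and Arc in that library is the lowest point in both panels.

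Close relatives of these genes were measured in the same libraries. Jun, the main partner of Fos, was far more abundant than Junb, at 37.7 ± 4.18 against 6.76 ± 0.843 CPM per kb (SD, n = 6), and its log2 fold change stood at 0.08 (SE 0.17, adjusted p = 0.785) with 6 libraries, -0.05 (SE 0.07, adjusted p = 0.664) without WT replicate 2 and 0.15 (SE 0.06, adjusted p = 0.134) with trends removed. Jund, the Jun family member that is expressed without stimulation in most tissues, was at 73.3, 310 and 58.9 CPM in WT replicates 1, 2 and 3 and at 38.1, 33.4 and 32.3 in Ash1l+/-. In the 5 libraries Jund fell by 0.93 on the log2 scale (SE 0.10, adjusted p = 1.72e-05), and with trends removed by 0.46 (SE 0.07, adjusted p = 0.000972). With 6 libraries its value was -2.09 (SE 0.67, adjusted p = 0.385). Jund is 1.668 kb long and, like Ier2, was far higher in WT replicate 2.

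Egr2, a zinc finger factor that Schwann cells need for myelination, was at 18.1, 10.5 and 12.9 CPM in WT and at 10.9, 8.91 and 8.24 in Ash1l+/-. It fell by 0.72 without WT replicate 2 (SE 0.16, adjusted p = 0.00426) and by 0.65 with trends removed (SE 0.15, adjusted p = 0.0134), and was at -0.57 (SE 0.26, adjusted p = 0.385) with 6 libraries. Beside it, 2 of 6 Schwann cell and myelin markers fell and 0 rose without WT replicate 2 (10.4% and 9.39% of all genes), and 1 fell with trends removed (4.42% of all genes), with summed levels from 4796 to 4960 CPM over WT replicates 1 and 3 and from 3952 to 4693 CPM in Ash1l+/-. The part of these cells in the Egr2 result was not tested. Egr3, at 16.4, 9.26 and 10.8 CPM in WT and 13.7, 21.8 and 11.1 in Ash1l+/-, did not pass, at 0.35 (SE 0.34, adjusted p = 0.549) with 6 libraries, 0.19 (SE 0.21, adjusted p = 0.563) with 5 and 0.24 (SE 0.21, adjusted p = 0.552) with trends removed. Fosl1 and Fosl2, the other Fos relatives, and Nr4a3 did not pass either. In the same order of settings, Fosl1 stood at 0.43, 0.11 and 0.43 (adjusted p of 0.566, 0.824 and 0.381), Fosl2 at 0.25, 0.24 and 0.22 (adjusted p of 0.523, 0.320 and 0.475) and Nr4a3 at -0.01, 0.30 and 0.25 (adjusted p of 0.990, 0.639 and 0.765). Egr4 had 1 to 9 reads per library and did not pass the count filter. Differences between paralogs in these fold changes were not tested.

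**Figure D4:**
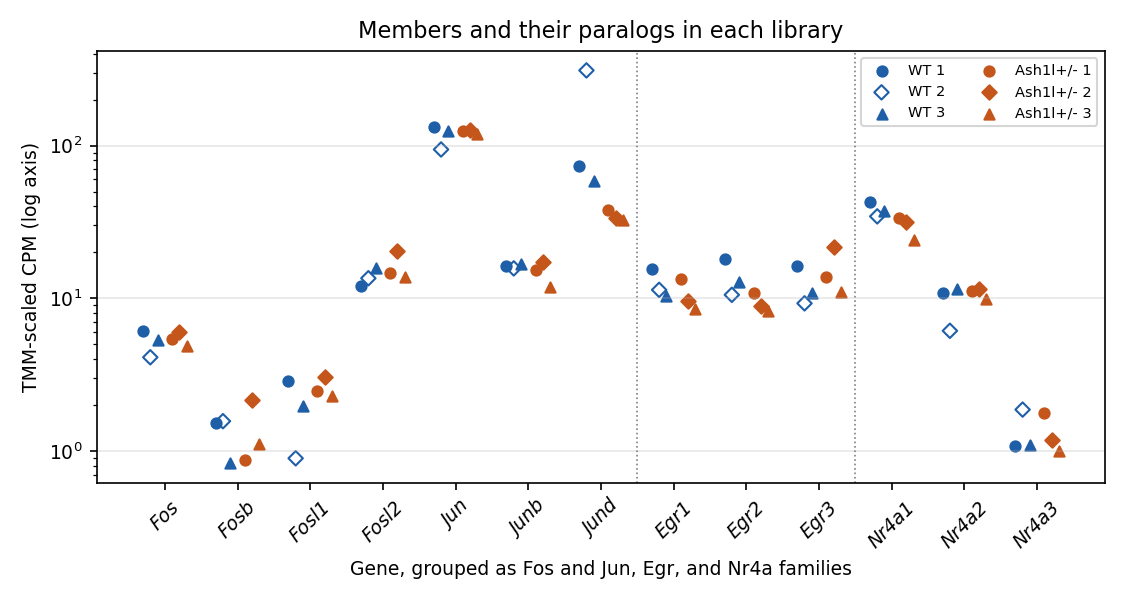
TMM-scaled CPM on a log axis of the Fos and Jun, Egr and Nr4a family genes that passed the count filter, by library, with blue for WT, orange for Ash1l+/- and the open diamond for WT replicate 2. Jund separates the genotypes and stands at 310 CPM in WT replicate 2, whereas Jun lies between 94.2 and 132 CPM in every library.

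The wider class was described with a list of 47 other immediate early genes, of which 45 passed the count filter. With 6 libraries 0 were called by edgeR, 7 had an unadjusted p under 0.05 and DESeq2 called 1, Atf3 (1.69, SE 0.37, adjusted p = 0.00993). In the 5 libraries, 2 rose, 10 fell and 33 did not pass, with a median log2 fold change of -0.11, where 9.39% of all genes rose and 10.4% fell. With trends removed, 3 rose (Atf3, Dusp4 and Socs3) and 4 fell (Jund, Egr2, Per1 and Sgk1), with a median of -0.03, beside 2.74% and 4.42% of all genes. Apart from Jund and Egr2, the largest fall was in Klf2, a Krüppel-like factor prominent in endothelium and T cells, at 14.4, 27.9 and 14.6 CPM in WT and 9.34, 7.67 and 7.63 in Ash1l+/- (-0.81, SE 0.14, adjusted p = 0.000841 without WT replicate 2), which was not called with trends removed (adjusted p = 0.0621). The genes that rose were Atf3, a stress and axon injury factor, at 6.96, 11.1 and 6.58 CPM in WT and 20.1, 35.8 and 24.04 in Ash1l+/- (1.97, SE 0.19, adjusted p = 4.92e-06), and Klf6, at 44.4, 59.6 and 50.2 against 59.4, 61.5 and 63.6 CPM (0.38, SE 0.09, adjusted p = 0.00467). Klf6 was not called with trends removed (adjusted p = 0.0555). Atf3 is also a marker of injured sensory neurons, and its level in the ganglia rose while Fos and Egr1 did not pass the test. Whether its change differs from theirs was not tested.

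The later wave of activity-regulated transcription in neurons depends in part on protein synthesis. Of 20 activity-regulated genes listed here, 19 were tested for a genotype difference. Whether each of them needs protein synthesis was not tested. With 6 libraries 0 were called and 2 had an unadjusted p under 0.05. In the 5 libraries, 4 rose and 1 fell, with a median of 0.23, beside 9.39% and 10.4% of all genes. Bdnf, which encodes brain-derived neurotrophic factor, was at 24.7, 20.8 and 30.4 CPM in WT and 34.7, 33.8 and 34.2 in Ash1l+/-, so that every Ash1l+/- library lay above every WT library (0.32, SE 0.10, adjusted p = 0.0391 without WT replicate 2). Pcsk1, a prohormone convertase, rose by 0.37 (SE 0.08, adjusted p = 0.00442) and Gpr22, an orphan receptor, by 0.56 (SE 0.15, adjusted p = 0.0114). Nptx2, a pentraxin that clusters AMPA receptors, fell by 0.44 (SE 0.08, adjusted p = 0.00126). With trends removed none of these 4 passed (adjusted p of 0.582, 0.165, 0.271 and 0.377), and 2 genes of the list rose (2.74% of all genes did), which were Vgf (0.28, SE 0.07, adjusted p = 0.0227) and Scg2 (0.21, SE 0.06, adjusted p = 0.049995).

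Upstream of the 10 genes, 40 kinases and transcription factors were tested. With 6 libraries 0 were called, and 4 had an unadjusted p under 0.05. Among the 5 libraries 7 rose and 5 fell, beside 9.39% and 10.4% of all genes. The largest rises were in Creb1, which encodes CREB itself (0.42, SE 0.10, adjusted p = 0.00520), Rps6ka3, which encodes the kinase RSK2 that phosphorylates it (0.35, SE 0.08, adjusted p = 0.00636), and Ep300, a histone acetyltransferase recruited by CREB (0.34, SE 0.09, adjusted p = 0.0130). Creb1 was at 36.7, 26.4 and 45.8 CPM in WT and 52.5, 56.1 and 56.9 in Ash1l+/-. The largest falls were in the small GTPase gene Hras (-0.44, SE 0.07, adjusted p = 0.000616), the CREB coactivator gene Crtc1 (-0.37, SE 0.09, adjusted p = 0.00864) and the MAP kinase kinase gene Map2k2 (-0.32, SE 0.08, adjusted p = 0.00728). With trends removed 0 rose and 4 fell, beside 2.74% and 4.42% of all genes. Those that fell were Hras and Crtc1 (adjusted p of 0.0242 and 0.0110), Camk2d and Ppp3cb, while Creb1 stood at 0.12 (SE 0.08, adjusted p = 0.387).

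Among 16 repressors and turnover factors of immediate early transcripts, 0 were called with 6 libraries, and 2 had an unadjusted p under 0.05. Across the 5 libraries 2 rose and 4 fell, beside 9.39% and 10.4% of all genes. Nab2, an EGR corepressor that is itself induced by EGR factors, was at 10.03, 11.1 and 10.2 CPM in WT and 7.19, 7.46 and 7.79 in Ash1l+/-, without overlap (-0.43, SE 0.15, adjusted p = 0.0466). Its paralog Nab1 rose by 0.25 (SE 0.08, adjusted p = 0.0403). Tob2, an antiproliferative adaptor of mRNA deadenylation, and Hdac5, a histone deacetylase that represses MEF2 targets, fell by 0.45 (SE 0.13, adjusted p = 0.0192) and 0.41 (SE 0.09, adjusted p = 0.00367). Elavl1, which encodes an RNA-stabilising protein, rose by 0.26 (SE 0.09, adjusted p = 0.0486). With trends removed 0 of the 16 were called by edgeR, where 7.16% of all genes were, and 5 had an unadjusted p under 0.05.

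Heat shock genes, which move with handling of tissue as immediate early genes do, are given beside them. Of 15 tested, 0 were called with 6 libraries and 1 had an unadjusted p under 0.05. Leaving out WT replicate 2, 6 rose and 1 fell (9.39% and 10.4% of all genes), and with trends removed 4 rose and 1 fell (2.74% and 4.42%). Hsp90aa1, a stress-inducible chaperone, rose by 0.39 (SE 0.09, adjusted p = 0.00494), Chordc1, an HSP90 cochaperone, by 0.35 (SE 0.08, adjusted p = 0.00635) and Hsph1 by 0.32 (SE 0.07, adjusted p = 0.00606), and Hspb1, a small heat shock protein, fell by 0.35 (SE 0.08, adjusted p = 0.00565). Chordc1 and Hspb1 were not called with trends removed (adjusted p of 0.540 and 0.504). The part of handling in the levels of the 10 genes was not tested.

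Cell type markers are given for the 5 libraries, in which 9.39% of all genes rose and 10.4% fell. Of 14 sensory neuron markers 3 rose and 2 fell, and their summed level ranged from 14603 to 14670 CPM in WT replicates 1 and 3 and from 14388 to 14748 CPM in Ash1l+/-. Of 6 satellite glial markers 4 rose, of 6 fibroblast markers 3 fell, and of 8 macrophage markers 0 were called by edgeR (0 with an unadjusted p under 0.05). Of the other lists, 1 of 5 neutrophil, 2 of 5 erythrocyte and 2 of 5 central nervous system markers fell, and 1 of 6 endothelial and mural and 1 of 5 central nervous system markers rose. With trends removed, where 2.74% of all genes rose and 4.42% fell, 6 sensory neuron and 1 satellite glial marker rose, and 0 of either fell. There 3 of 6 fibroblast markers fell, as without that removal. In the same fit 1 Schwann cell and myelin, 1 neutrophil, 1 erythrocyte and 1 central nervous system marker fell. Another central nervous system marker rose. Ly6g, Mog and Olig2 were at 0 in at least 1 library. Summed macrophage markers ranged from 46.2 to 46.3 CPM over WT replicates 1 and 3, with 114 CPM in WT replicate 2 and 39.1 to 42.2 CPM in Ash1l+/-. The part of these cells in the levels of Nr4a1, Dusp1 and Ier2 was not tested.

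Genes with a profile most like these were ranked by the root mean square difference between log2 CPM profiles centred on their own means, over 6 libraries, among 11220 protein-coding genes averaging 5 CPM or more. The nearest to Fos were Atp6v0a2 (0.0430), Dock6 (0.0454) and Qtrt2 (0.0490), against a departure of the Fos profile from its own mean of 0.188. For the mean profile of the 9 genes tested they were Map4k2 (0.0437), Evi5l (0.0568) and Arpc1b (0.0584). Among the 9 genes, the pair with the most similar profiles was Junb and Nr4a1 (0.157), followed by Junb and Dusp1 (0.168) and by Fos and Nr4a2 (0.172), and the least similar pair was Arc and Ier2 (1.16). All 6 libraries enter each of these distances, WT replicate 2 included.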

How the data were processed

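RNA of frozen ganglia was extracted with Trizol and made into libraries with a NEBNext Ultra RNA kit, per the labels' protocols. That kit does not mark strand. The authors deposited raw read counts per gene and FPKM values for 54532 genes in 6 libraries. HISAT2 2.0.5, featureCounts 1.5.0-p3 and GRCm38 (mm10) are named in the submitters' processing notes, without parameters. Replicate numbers and the group names wt and ash1l come from the sample titles, which do not state zygosity. By replicate number, the WT libraries held 19033437, 17648407 and 18389787 counts (TMM factors 1.07, 0.759 and 1.05) and the Ash1l+/- libraries 20545722, 17647095 and 17209294 (1.06, 1.06 and 1.05). Every pair of libraries differed beyond sampling noise (lowest chi-square per degree of freedom 3.86).

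From the counts, genes that passed filterByExpr entered a quasi-likelihood fit in edgeR 4.0.16 (R 4.3.3), with TMM factors and no term but genotype. Benjamini-Hochberg adjustment ran over all genes tested, and calls were made at 0.05. Intervals are at 95%. In edgeR the SE was taken as the absolute log2 fold change over the square root of the F statistic, so its intervals are approximate. Trends were removed with a loess curve (span 0.3) of each library's log2 CPM (prior count 2), as the deviation from the gene's mean, on log2 gene length and GC content of the longest GENCODE M21 transcript, clipped at the 1 and 99 percentiles and entered as an offset. GC was found for 99.9% of tested genes. Alternatives used DESeq2 1.42.0 and limma 3.58.1, among others.

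The 10 genes and all lists (220 genes, all in the table) were chosen with earlier results of these data known. In each list, the genes named are up to 3 with the largest change in each direction among those called without WT replicate 2 at a mean CPM of at least 1. The paralogs in the family plot were chosen after their values were seen, as were the alternatives that combine the absence of WT replicate 2 with another scaling, filter or tool. The genes with profiles nearest to that of Egr1 are not reported here.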

Additional observations from a re-analysis of the deposited data

How the results depend on the processing

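Across 32 analyses, Nr4a1 and Ier2 were lower in Ash1l+/- in every one. Nr4a1 was called in 11 and Ier2 in 3. Both were called in limma-voom with library quality weights (adjusted p of 0.0159 and 0.0476, WT replicate 2 weighted 0.0341). Adjusted p ranged from 0.000792 to 0.931 for Nr4a1, and from 0.0394 to 0.677 for Ier2.

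The number of genes called was 0 with 6 libraries in edgeR under RLE factors, upper-quartile factors, library totals, both other count filters, trend removal and the replicate block, 35 in DESeq2 and 3421 with quality weights. Library totals moved the median log2 fold change of all genes to 0.13. Leaving out libraries gave 0 to 4198 genes called over all analyses with 1 library, or WT replicate 2 and 1 other, left out, and 0 in each with WT replicate 2 kept. Without WT replicate 2 it was 3252, and then 3266 with RLE, 3288 with upper-quartile, 3223 with library totals, 3395 with no count filter, 2904 in DESeq2, 3190 in limma-voom and 1174 with trends removed. From those 5 libraries, leaving out WT replicate 1 gave 796, WT replicate 3 gave 2584, and Ash1l+/- replicates 1, 2 and 3 gave 4198, 1855 and 2120.

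Of the 10 genes, leaving out libraries gave 0 to 3 called, quality weights 2, and without WT replicate 2 the count was 1 with RLE, upper-quartile, library totals, DESeq2 and limma-voom and 2 with no filter. Calls in the other lists ranged with libraries left out from 0 to 15 (other immediate early genes), 0 to 8 (delayed genes), 0 to 20 (upstream factors), 0 to 6 (repressors) and 0 to 8 (heat stress). Quality weights gave 11, 6, 12, 5 and 8 in that order, trend removal without WT replicate 2 gave 7, 2, 4, 0 and 5, and DESeq2 with 6 libraries called 1 of the first list.

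Directions turned for genes that no analysis called, and for Egr1, called once. With libraries left out, log2 fold changes ranged from -0.16 to 0.21 for Fos, -0.39 to 0.71 for Fosb, -0.27 to 0.0166 for Junb, -0.57 to 0.0322 for Egr1, -0.10 to 0.35 for Nr4a2 and -0.14 to 0.77 for Arc. Without WT replicate 2, Fos and Nr4a2 were at -0.0601 and -0.0484 with RLE, -0.0564 and -0.0444 with upper-quartile, -0.0685 and -0.0563 with library totals, -0.0675 and -0.0557 with no filter, -0.0601 and -0.0486 in DESeq2 and -0.0659 and -0.0522 in limma-voom. With quality weights they were at -0.0691 and -0.0424. Junb stood at 0.00879 with library totals. With trends removed Junb was at 0.50, Egr1 at 0.00433 and Dusp1 at 0.00432 with 6 libraries, and Junb at 0.28 and Nr4a2 at -0.0909 with 5. The causes were not tested.

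The replicate number as a block, alone or with trends removed, called 0 genes by edgeR (595 and 381 with an unadjusted p under 0.05). With the block and trends removed, Junb was at 0.52, Egr1 at 0.00358 and Dusp1 at 0.0146. Deviations of same-numbered libraries from their genotype means had r of 0.000517, -0.0317 and 0.0378. The WT mean includes WT replicate 2, which stood apart, so these values cannot decide whether the numbers pair libraries. The labels state no pairing, and the main fit used none. Depth limits Npas4, with a counting error of at least 37.8% per library. In Fosb the spread between libraries, 31.8% in WT and 49.2% in Ash1l+/-, exceeded the counting error in both genotypes.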
